A study of Homo sapiens with 24 samples.

Results

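The C/EBP transcription factors described here are 5 genes, CEBPA, CEBPB, CEBPD, CEBPG and CEBPZ, taken by name from the 61533 genes of a table of exon read counts. All 5 passed the filter on low counts. The counts came from 4sU-seq of U2OS cells, a human osteosarcoma line, in which cells take up 4-thiouridine (4sU) for 1 h and the RNA made in that hour is purified and sequenced. The lines stably expressed the glucocorticoid receptor (GR) with a HaloTag at its C terminus, either wild type (wt), with the K492A substitution that reduces RNA binding (SoF), or with the R470A substitution (Ctrl), which serves as the control for reduced DNA binding. All 3 lines were kept in charcoal-stripped serum and treated with the glucocorticoid dexamethasone at 100 nM over 1, 2 or 3 h. The 0 h cells got 0.01% ethanol instead, and 200 µM 4sU was present over the last hour. The design had 12 groups and 24 libraries, 2 per group. Each construct was carried on a transposon plasmid with a CMV promoter and each line was 1 sorted pool, so the receptor allele and the pool cannot be told apart. How long the 0 h cells stood in ethanol is not stated, and nothing says whether the 2 libraries of a group came from separate cultures, so p-values measure the spread between these libraries, which may be technical. The labelled RNA was tagged with biotin and pulled down in pairs of replicates. The spread within a group may therefore leave out variation of that step, which cannot be told apart from differences between groups.

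C/EBP proteins are basic leucine zipper (bZIP) factors that bind DNA as dimers. CEBPA promotes differentiation of adipocytes, hepatocytes and granulocytes, CEBPB and CEBPD act in the acute-phase response, inflammation and early adipogenesis, and CEBPG lacks a strong activation domain of its own and pairs with other bZIP proteins. CEBPZ shares the name but not the family: it is a CCAAT box binding protein of the ribosome biogenesis machinery with no leucine zipper. Glucocorticoids are known to raise CEBPB and CEBPD in several tissues. GR binds DNA at glucocorticoid response elements (GRE), inverted repeats of AGAACA spaced by NNN.

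The 3 C/EBP genes with a single exon were also the GC-rich ones. CEBPA lies on the minus strand at chr19:33299934-33302534 (hg38) and CEBPB on the plus strand at chr20:50190830-50192668. The exon GC content was 65.9% for CEBPA, 66.2% for CEBPB and 66.0% for CEBPD, where 2.80% of tested protein-coding genes had a single exon and the median GC of tested genes was 48.2%. CEBPG, on the plus strand at chr19:33373685-33382686, had 2 exons and 41.3% GC. CEBPZ, on the minus strand at chr2:37201612-37231596, had 16 exons and 39% GC. CEBPG starts 71151 bp upstream of CEBPA.

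Promoter letters from RefSeq (GRCh38.p14, 250 bases before to 50 after the start) were used for 4 of the 5 genes. The promoter of CEBPD was not examined. The promoters of CEBPB, which rose with dexamethasone, of CEBPA, the least expressed member, and of CEBPG, which varied least, are shown 5′ to 3′ on the strand of the gene, with capitals on motif matches. The motifs were the TATA box as TATAAA on the strand of the gene and, on either strand, the CCAAT box as CCAAT, the core of the cAMP response element as TGACG, the AP-1 site as TGANTCA, the GRE arm as AGAACA and the C/EBP site as TTGCNNAA.
CEBPB chr20:50190580-50190879: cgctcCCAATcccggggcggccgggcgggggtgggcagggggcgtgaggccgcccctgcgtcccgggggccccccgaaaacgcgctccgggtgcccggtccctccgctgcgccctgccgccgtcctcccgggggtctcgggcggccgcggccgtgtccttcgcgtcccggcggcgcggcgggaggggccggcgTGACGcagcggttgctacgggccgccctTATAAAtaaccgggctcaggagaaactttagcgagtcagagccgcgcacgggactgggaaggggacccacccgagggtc
CEBPA chr19:33302485-33302784: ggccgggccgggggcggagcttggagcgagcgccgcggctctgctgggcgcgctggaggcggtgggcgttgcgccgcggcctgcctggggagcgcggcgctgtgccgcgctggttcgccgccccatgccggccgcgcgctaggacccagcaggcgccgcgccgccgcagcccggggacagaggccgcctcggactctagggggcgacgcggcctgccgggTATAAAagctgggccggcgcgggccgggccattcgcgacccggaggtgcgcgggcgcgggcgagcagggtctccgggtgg
CEBPG chr19:33373459-33373758: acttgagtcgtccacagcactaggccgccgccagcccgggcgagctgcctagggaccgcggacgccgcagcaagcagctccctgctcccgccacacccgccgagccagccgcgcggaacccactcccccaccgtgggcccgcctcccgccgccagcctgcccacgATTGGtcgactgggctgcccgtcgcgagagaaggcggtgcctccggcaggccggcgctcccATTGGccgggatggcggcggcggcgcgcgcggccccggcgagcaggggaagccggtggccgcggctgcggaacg
In CEBPB the TATA box began 29 bases before the start, the cAMP response element core 57 bases before it and the CCAAT box 245 bases before it. CEBPA had the TATA box alone, 30 bases before its start. CEBPG had 2 CCAAT boxes on the opposite strand, 85 and 24 bases before its RefSeq start, and no TATA box. In the CEBPZ promoter the 1 match was a cAMP response element core, 174 bases before the start. Of 35116 RefSeq promoters, 7.33% held the TATA box, 34.6% the CCAAT box and 24.6% the cAMP response element core. The AP-1 site was in 7.71% of them, the GRE arm in 14.8% and the C/EBP site in 10.5%. None of the 4 promoters matched the GRE arm, the AP-1 site or the C/EBP site.

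A looser GRE pattern (GNACA, then 3 free bases, then TGTNC) was then searched in hg38 within 30 kb on either side of every tested gene's start. CEBPB had 1 match, 23.6 kb downstream of its start, and the other 4 members had none. The match is shown because it is the only GRE-like sequence in these windows, with capitals on the pattern and 4 bases on either side.
CEBPB chr20:50214469-50214481: gcagGCACACAGTGTCCcgac
It carried 8 of the 12 letters of the full AGAACA inverted repeat, which is the least that any match to the looser pattern can carry. At least 1 match lay in the same window for 53.2% of tested genes. These are letter matches and no binding was measured.

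Levels between genes are compared as CPM (counts scaled to library size with TMM factors) per kb of exon. Averaged over the 24 libraries, CEBPB had 95.7 CPM per kb, CEBPZ 32.8, CEBPG 21.3, CEBPD 13 and CEBPA 0.822. In CPM per kb this put CEBPB above 98.7% of tested genes and CEBPA above 20.7%. CEBPA rested on 10 to 42 counts per library. CEBPE, the granulocyte member of the family, had a count of 0 in all 24 libraries. The range across libraries separated the members further: the highest CPM was 13.1 times the lowest for CEBPB, 13 times for CEBPD, 3.12 times for CEBPA, 1.62 times for CEBPZ and 1.51 times for CEBPG.

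**Figure D1:**
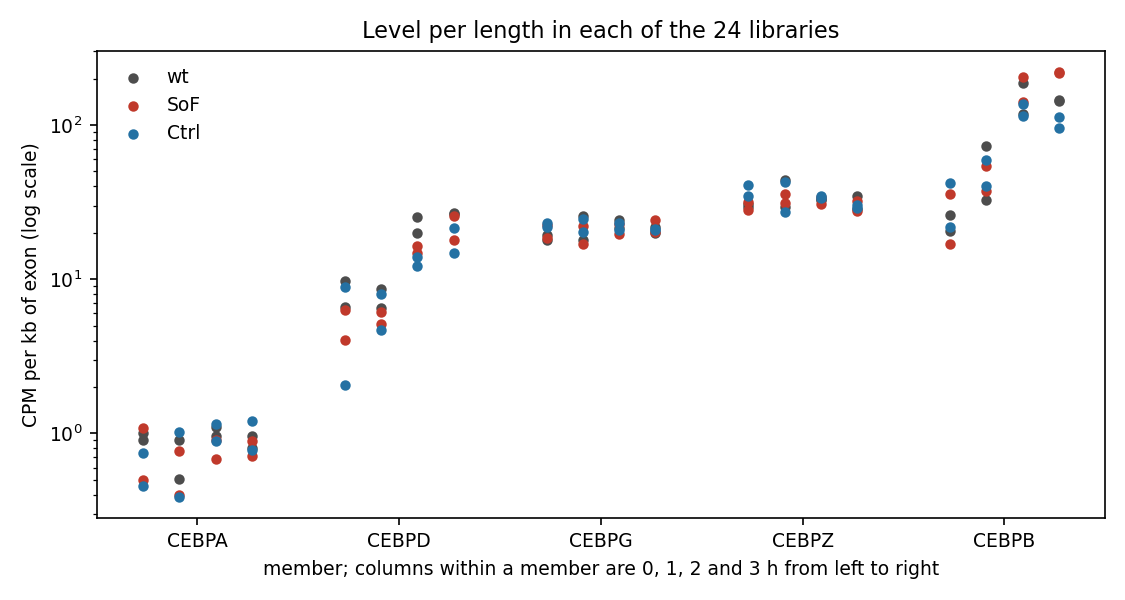
CPM per kb of exon (log axis) of the 5 members, 1 point per library, with columns of 0, 1, 2 and 3 h from left to right within each gene and lines by colour. CEBPB moves from between 16.9 and 42.3 at 0 h to between 96.1 and 221 at 3 h, whereas CEBPG and CEBPZ form flat bands.

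CEBPB, a leading acute-phase and adipogenic factor, rose with dexamethasone in all 3 lines at 2 and 3 h. In wt cells its level was 47.9 and 37.9 CPM at 0 h, 59.95 and 134 at 1 h, 216 and 346 at 2 h, and 267 and 262 at 3 h. In SoF cells it was 65.8 and 31.1 CPM at 0 h, 99.2 and 68.9 at 1 h, 379 and 258 at 2 h, and 398 and 406 at 3 h. In Ctrl cells it was 77.7 and 39.9 CPM at 0 h, 109 and 73.7 at 1 h, 210 and 251 at 2 h, and 177 and 206 at 3 h. In every line the 2 h and 3 h libraries all lay above the 0 h and 1 h libraries of that line, and the 0 h and 1 h libraries overlapped in Ctrl alone. How many of all genes separate in this way was not counted.

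Against 0 h, CEBPB at 2 h had a log2 change of 2.71 (SE 0.37) in wt cells, 2.71 (SE 0.37) in SoF cells and 1.96 (SE 0.36) in Ctrl cells, at adjusted p values of 0.000132, 6.91e-05 and 0.00146 (edgeR's quasi-likelihood test, Benjamini-Hochberg adjustment over all 23651 genes tested). At 3 h the wt change was 2.62 (SE 0.37), the SoF change 3.04 (SE 0.37) and the Ctrl change 1.69 (SE 0.36), which is 6.16-fold, 8.25-fold and 3.23-fold, and the adjusted p values were 5.99e-05, 7.08e-06 and 0.00275. The comparisons within a line use the same 0 h libraries. Without the second 0 h library of Ctrl, the lower of that pair, the CEBPB change in Ctrl was 1.55 at 2 h (adjusted p = 0.0619) and 1.30 at 3 h (adjusted p = 0.0777), and neither was called. Without the first 0 h library of SoF, the change in SoF was 3.36 at 2 h and 3.70 at 3 h. At 1 h the wt change was 1.18 (SE 0.35), the SoF change 0.79 (SE 0.35) and the Ctrl change 0.63 (SE 0.35), none of them called (adjusted p = 0.262, 0.696 and 1).

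CEBPD, on the minus strand of chromosome 8, acts with CEBPB in the acute-phase and adipogenic programmes. It also rose in all 3 lines by 3 h. In wt cells its level was 12.2 and 8.31 CPM at 0 h, 8.14 and 10.8 at 1 h, 24.8 and 31.7 at 2 h, and 32.9 and 33.7 at 3 h. In SoF cells it was 7.89 and 5.01 CPM at 0 h, 7.65 and 6.42 at 1 h, 20.7 and 18.5 at 2 h, and 22.6 and 32.3 at 3 h. In Ctrl cells it was 11.2 and 2.59 CPM at 0 h, 9.99 and 5.87 at 1 h, 15.2 and 17.3 at 2 h, and 18.5 and 26.8 at 3 h. The 0 h and 1 h libraries overlapped in every line and all 2 h and 3 h libraries lay above them, an order that was not counted over all genes.

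At 1 h the log2 change of CEBPD was -0.11 in wt cells, 0.11 in SoF cells and 0.12 in Ctrl cells, each with an SE of 0.37 to 0.41. At 2 h it was 1.45 (SE 0.35, adjusted p = 0.0203) in wt, 1.58 (SE 0.38, adjusted p = 0.0136) in SoF and 1.16 (SE 0.38, adjusted p = 0.0597) in Ctrl, by edgeR's quasi-likelihood test, so the call was missed in Ctrl. At 3 h it was 1.70 (SE 0.35, adjusted p = 0.00294) in wt, 2.07 (SE 0.38, adjusted p = 0.000511) in SoF and 1.63 (SE 0.37, adjusted p = 0.00516) in Ctrl. The calls rested on single libraries in several places. Without the second 0 h library, the 2 h change was 1.21 in wt (adjusted p = 0.279) and 1.30 in SoF (adjusted p = 0.183), and the 3 h change 1.47 in wt (adjusted p = 0.0524) and 1.01 in Ctrl (adjusted p = 0.0806). Without a single 2 h library it was 1.25 in wt (second library, adjusted p = 0.262) and 1.5 in SoF (first library, adjusted p = 0.104), and without the second 3 h library it was 1.34 in Ctrl (adjusted p = 0.0813). Without the first 0 h library of Ctrl, the CEBPD change there was 2.65 at 2 h (adjusted p = 0.000438) and 3.14 at 3 h, where the 0 h libraries had 11.2 and 2.59 CPM. The 3 h change in SoF was called under every alternative run.

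**Figure D2:**
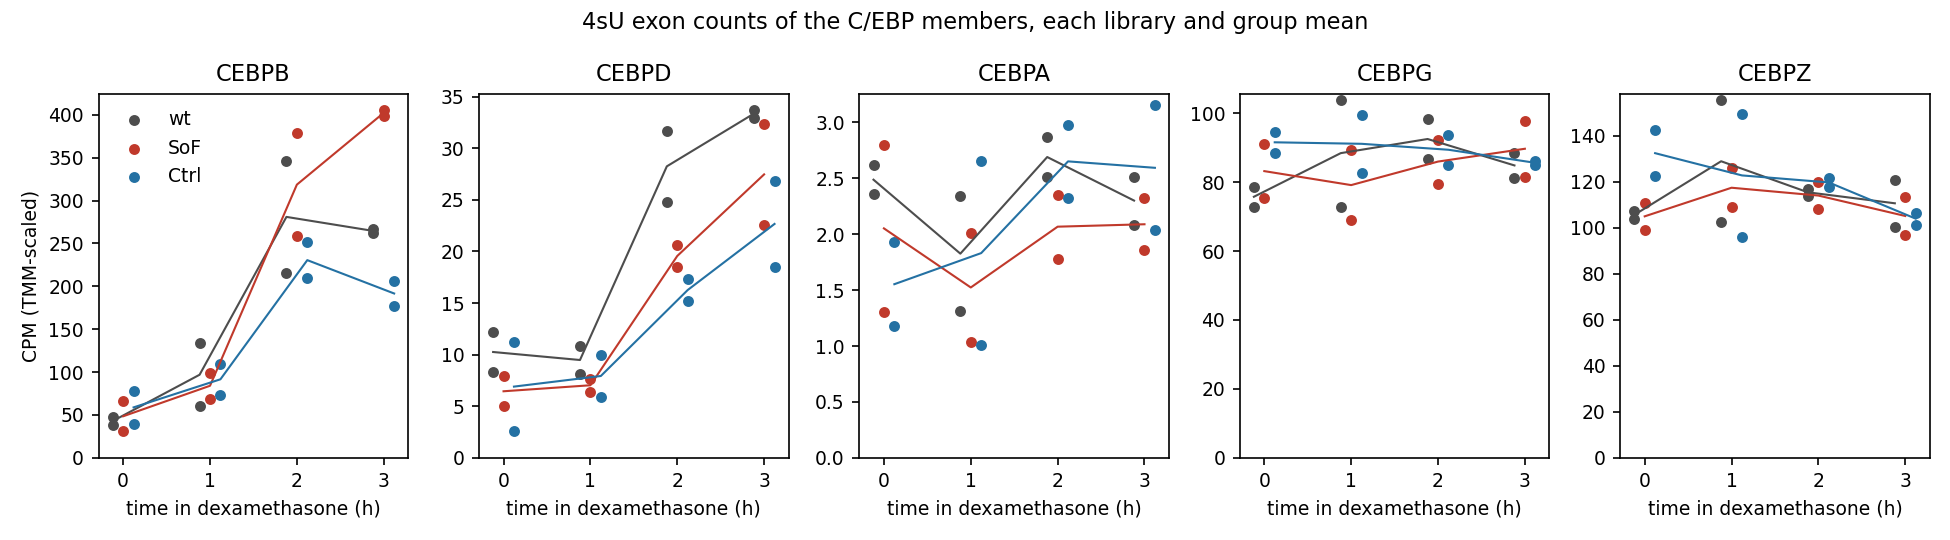
CPM of each member in each library (points) with the group means joined (lines), against hours in dexamethasone, by line. The means of CEBPB and CEBPD are higher at 2 h than at 1 h in all lines, without a call for CEBPD in Ctrl, and at 3 h the 2 SoF libraries of CEBPB (398 and 406) stand above the wt (262 and 267) and Ctrl (177 and 206) libraries.

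No change was called for the other members. CEBPA had 1.01 to 3.15 CPM over all libraries and its log2 change at 3 h was -0.11 (SE 0.41) in wt, -0.02 (SE 0.43) in SoF and 0.68 (SE 0.44) in Ctrl. In Ctrl the 0 h libraries had 1.93 and 1.18 CPM and the 3 h libraries 2.04 and 3.15, on 10 to 35 counts each. The 95% interval in Ctrl ran from -0.23 to 1.60. CEBPG had 69.0 to 104 CPM and had log2 changes of 0.16 (SE 0.17) in wt, 0.11 (SE 0.17) in SoF and -0.10 (SE 0.17) in Ctrl at 3 h. Its 95% intervals at 3 h reached no further than -0.45 and 0.51. CEBPZ had 96.2 to 155 CPM and had 0.07 (SE 0.19) in wt, 0.00 (SE 0.19) in SoF and -0.35 (SE 0.19) in Ctrl. In Ctrl the CEBPZ libraries had 122 and 143 CPM at 0 h and 107 and 101 at 3 h, at an adjusted p of 0.230 by edgeR's quasi-likelihood test.

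Counted over the 5 members, those called at 2 h were CEBPB and CEBPD in wt and SoF and CEBPB in Ctrl, and at 3 h both in every line, all higher. None was called at 1 h in any line by edgeR. At 1 h 1 member, CEBPB, had an unadjusted p under 0.05 in wt and in SoF and none had in Ctrl, and DESeq2 called no member at 1 h in any line. The share of all tested genes called was 0.156% at 1 h, 4.6% at 2 h and 10.7% at 3 h in wt. It was 0.165%, 5.68% and 19.3% in SoF and 0.0465%, 7.95% and 14.2% in Ctrl, in the same order. By log2 change CEBPB ranked 80th and CEBPD 237th of 23651 genes at 3 h in wt, 84th and 246th in SoF, and 243rd and 283rd in Ctrl.

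**Figure D3:**
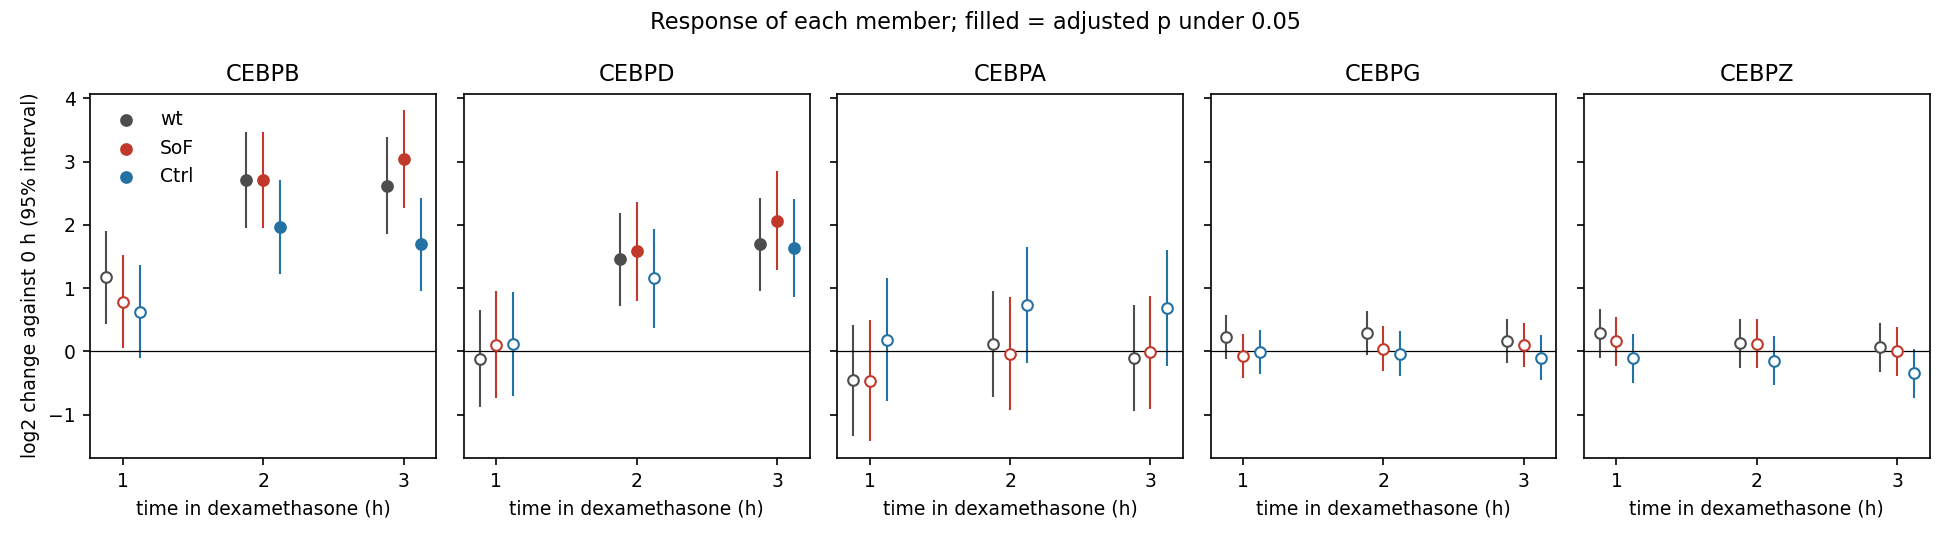
Log2 change of each member against 0 h of the same line at 1, 2 and 3 h, with 95% intervals. Filled points have an adjusted p under 0.05: CEBPB and CEBPD are filled at 2 and 3 h, except CEBPD in Ctrl at 2 h (1.16), and CEBPA, CEBPG and CEBPZ are open throughout.

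CEBPB in all 3 lines and CEBPD in wt and SoF were called for the step from 1 to 2 h. CEBPB rose over that step by 1.53 (SE 0.35) in wt, 1.92 (SE 0.36) in SoF and 1.33 (SE 0.35) in Ctrl on the log2 scale (adjusted p = 0.00732, 0.000974 and 0.0173). CEBPD rose by 1.57 (SE 0.36, adjusted p = 0.00750) in wt and 1.47 (SE 0.38, adjusted p = 0.0106) in SoF, and its step was 1.04 (SE 0.38, adjusted p = 0.0819) in Ctrl. Between 1 and 2 h, 13.5% of all tested genes were called in wt, 18.3% in SoF and 10.6% in Ctrl cells. The step calls in wt rested on single libraries: without the first 1 h library CEBPB had 1.07 (adjusted p = 0.119) and CEBPD 1.38 (adjusted p = 0.0913), and without the second 2 h library 1.14 (adjusted p = 0.111) and 1.37 (adjusted p = 0.077). The CEBPB step in Ctrl was 1.07 without the second 1 h library (adjusted p = 0.187) and 1.20 without the second 2 h library (adjusted p = 0.130), and the CEBPD step in SoF was 1.62 and 1.36 without the first and the second 1 h library and 1.40 without the first 2 h library (adjusted p = 0.0509, 0.103 and 0.0836). From 2 to 3 h no member was called by edgeR or DESeq2, none had an unadjusted p under 0.05, and 0.681% of all genes were called in wt, 2.53% in SoF and 1.15% in Ctrl. Over that last step the log2 value of CEBPB was -0.09 (SE 0.34) in wt, 0.34 (SE 0.34) in SoF and -0.27 (SE 0.34) in Ctrl, and that of CEBPD 0.24 (SE 0.34), 0.49 (SE 0.34) and 0.47 (SE 0.35).

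Whether the receptor mutants changed the response was asked by the difference between lines in the change from 0 h. For CEBPB at 3 h, the response in SoF exceeded that in Ctrl by 1.35 (SE 0.49, 95% interval 0.33 to 2.38) on the log2 scale. Its unadjusted p was 0.0120 and its adjusted p, over all genes, was 1.00 by edgeR's quasi-likelihood test. The response of CEBPB in Ctrl was below that in wt by a log2 difference of -0.93 (SE 0.49, adjusted p = 0.982), and that in SoF was above wt by 0.42 (SE 0.49, adjusted p = 1.00). Leaving out 1 library moved the SoF minus Ctrl difference over 0.77 (without the first 0 h library of Ctrl) to 2.01 (without the first 0 h library of SoF), and the Ctrl minus wt difference over -1.34 to -0.35 (without the second and the first 0 h library of Ctrl). At 2 h the difference of SoF and wt was 0.00 (SE 0.47), and that of Ctrl and wt -0.75 (SE 0.49). For CEBPD at 3 h the difference was 0.44 (SE 0.53) between SoF and Ctrl, 0.37 (SE 0.51) between SoF and wt and -0.07 (SE 0.51) between Ctrl and wt.

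No difference in response between lines was called for any member by edgeR or DESeq2, and 1 member, CEBPB for SoF against Ctrl at 3 h, had an unadjusted p under 0.05. Of all genes, 0% were called for SoF against Ctrl at 2 h and 0.0127% at 3 h, 0% and 0% for SoF against wt, and 0% and 0% for Ctrl against wt. These differences share the 0 h libraries of the lines. At 0 h the CEBPB libraries of Ctrl (77.7 and 39.9 CPM) and SoF (65.8 and 31.1) lay further apart within each line than the line means (58.8 and 48.5 CPM) did. Without the low-count filter the SoF against Ctrl difference of CEBPB at 3 h was 1.37, with an adjusted p of 3.68e-05 by the same edgeR test. The estimate was close to the 1.35 of the filtered fit, so the call did not come from a larger difference. Calls over all genes for this comparison were 52 without the filter and 3 with it, and the cause was not tested.

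Levels at 3 h alone, a comparison added after the data were seen, put CEBPB 1.07 (SE 0.34, 95% interval 0.36 to 1.78) higher in SoF than in Ctrl on the log2 scale (unadjusted p = 0.00515, adjusted p = 0.231 by edgeR's quasi-likelihood test). The same levels differed by 0.60 (SE 0.34) between SoF and wt and by -0.47 (SE 0.34) between Ctrl and wt. The libraries of the lines did not overlap at 3 h, with SoF highest and Ctrl lowest, and the share of all genes separated so was not counted. None of the differences was called. Over all genes, 0.668% were called for SoF against Ctrl, 0.207% for SoF against wt and 0.474% for Ctrl against wt. No other member had an unadjusted p under 0.05 there. With treatment time ignored and 8 libraries a line, no member was called between lines by edgeR or DESeq2, none at an unadjusted p under 0.05. Such a fit counts the change over time as spread within a line (SE 0.52 for CEBPB in SoF against wt), so it could miss differences in CEBPB and CEBPD. There 3.61% of genes were called for SoF against Ctrl, 8.02% for SoF against wt and 4.77% for Ctrl against wt. CEBPD had log2 differences of -0.41 (SE 0.42) in SoF and -0.59 (SE 0.42) in Ctrl against wt by this fit, without a call. With time as an additional term the same differences were -0.45 and -0.54 with adjusted p of 0.0398 and 0.0227.

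The receptor itself, NR3C1, had medians of 633 CPM in wt, 2187 in SoF and 2858 in Ctrl over 8 libraries each, which count the transgene and the resident gene together where they share exons. These are RNA levels, and the paper chose sorted cell fractions to match nuclear GR protein between lines. With time ignored, NR3C1 was called above wt by a log2 difference of 1.89 for SoF and 2.19 for Ctrl. Within wt it had 552 and 824 CPM at 0 h, 1312 and 1595 at 1 h, and 334 and 366 at 3 h. The log2 change at 3 h was called in every line: -0.97 for wt, -1.23 for SoF and -0.97 for Ctrl. The part of NR3C1 in the CEBPB levels was not tested. Osteoblast lineage genes summed to 627 to 1448 CPM, with 6 of 9 over 1 CPM on average, while COL1A2 and IBSP were near 0. Adipocyte (0 to 0.506 CPM), liver (0 to 0.337) and blood (0.809 to 2.69) markers, of the tissues where C/EBP proteins are best known, were near 0, and epithelial markers summed to 2.15 to 10.9 CPM. Total counts ranged from 8106036 to 15820806 per library.

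Among bZIP relatives and partners, 9 of 11 genes were tested and, at 3 h in each line, 1 was higher and 1 lower, with a median log2 change of -0.07 in wt against -0.03 over all genes. Among all tested genes, 10.7% (wt), 19.3% (SoF) and 14.2% (Ctrl) were called at 3 h in either direction. BATF3, a bZIP factor of dendritic cells, rose from 2.77 and 3.71 CPM at 0 h to 7.97 and 9.15 at 3 h in wt. Its log2 change was 1.39 in that line, 1.37 in SoF and 1.30 in Ctrl. DDIT3 (CHOP), a stress factor that forms inactive dimers with C/EBP proteins, fell by 0.86 in wt, by 1.15 in SoF and by 1.08 in Ctrl on the log2 scale. In wt it had 44.5 and 45.5 CPM at 0 h and 22.9 and 26.8 at 3 h. ATF4, a dimer partner of CEBPG, had a log2 change of -0.20 (SE 0.17) in wt at 3 h and was not called in any line. The DDIT3 call in wt was lost without the second 0 h library (-0.82) or the second 3 h library (-0.74), and the BATF3 call in Ctrl without the second 0 h library (1.09).

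Of 19 genes that control C/EBP proteins, all tested, 2 were higher and 2 lower at 3 h in wt, 6 and 2 in SoF, and 5 and 2 in Ctrl, with medians of 0.27, 0.20 and 0.06 against -0.03, -0.03 and -0.02 over all genes. These counts stand beside 10.7% (wt), 19.3% (SoF) and 14.2% (Ctrl) of all tested genes called at 3 h in either direction. The Tribbles pseudokinases, which direct CEBPA to degradation, went opposite ways. TRIB2 rose by 0.91 in wt, 0.86 in SoF and 0.71 in Ctrl on the log2 scale, and TRIB1 fell by 0.58, by 0.57 and by 0.68. EHMT2, a histone methyltransferase that also modifies CEBPB, rose by 0.89, 1.30 and 1.29. STAT3, which drives CEBPD transcription downstream of IL-6 family cytokines, fell by 0.67, by 0.64 and by 0.75. When 1 library was left out, the TRIB1 call was lost in wt without the second 0 h library or either 3 h library (-0.50 to -0.59) and in SoF without the second 0 h or the first 3 h library (-0.53 and -0.46). The TRIB2 call in Ctrl was lost without the second 0 h or the second 3 h library (0.56 and 0.48).

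Known C/EBP targets were mixed, and 15 of 27 could be tested since many liver and fat genes were silent. At 3 h 4 were higher and 1 lower in wt, 4 and 1 in SoF, and 3 and 1 in Ctrl, and the median log2 changes were 0.97, 0.73 and 0.69. Over all tested genes, 10.7% were called in wt, 19.3% in SoF and 14.2% in Ctrl, with medians of -0.03, -0.03 and -0.02. The acute-phase gene SAA1 had 0.135 and 0.385 CPM at 0 h and between 1.89 and 3.35 at 3 h in wt, a log2 change of 3.32 (SE 0.86), beside 2.94 in SoF and an uncalled 1.96 (adjusted p = 0.0791) in Ctrl. SAA1 was called in Ctrl under 4 of 10 alternatives, at 2.10 with the replicate block (adjusted p = 0.0176), 2.01 by DESeq2 (adjusted p = 0.0354), 1.95 with the libraries of Ctrl alone (adjusted p = 0.01) and 1.95 without the low-count filter (adjusted p = 0.000278). Its near-identical copy SAA2 could share reads with it, so the split between them is uncertain. The SAA1 call was lost in wt without either 0 h library or the first 3 h library (2.71, 4.19 and 2.86) and in SoF without the second 0 h or the first 3 h library (2.18 and 2.28), where it was 5.86 without the first 0 h library. PPARG, the adipogenic factor downstream of CEBPB and CEBPD, rose by 1.39 in wt and 0.97 in Ctrl, and had 0.73 (adjusted p = 0.0569) in SoF. The PPARG call in Ctrl was lost without the second 0 h or the second 3 h library (0.81 and 0.83), and PPARG was called in SoF without the first 0 h library (1.06). PPARG was also called in SoF at 0.73 with the replicate block (adjusted p = 0.0406) and with the libraries of SoF alone (adjusted p = 0.0356), and at 0.74 without the low-count filter (adjusted p = 0.0231).

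IL6R, the interleukin 6 receptor, rose by 0.97 in wt, 1.88 in SoF and 1.31 in Ctrl on the log2 scale. CCL2, a chemokine, rose by 1.27 in wt and had 1.00 in SoF and 1.03 in Ctrl, both uncalled. Left-out libraries moved both calls: that of IL6R was lost in wt without any 1 of its 4 libraries (0.79 to 1.22) and in Ctrl without the second 0 h library (1.07), and that of CCL2 was lost in wt without either 0 h library (1.52 and 1.06) or the second 3 h library (0.87). CCL2 was called in SoF without the first 0 h (1.47) or first 3 h library (1.35), and in Ctrl without the first 0 h library (1.73). It was also called in both lines without the low-count filter or with the libraries of that line alone, and its call in wt was lost by DESeq2 (1.27, adjusted p = 0.0517). The IL6R call in wt was also lost with upper quartile factors (0.88) and with the libraries of wt alone (0.97). PTGS2, the inducible cyclooxygenase and a known target of glucocorticoid repression, fell by 2.50 in wt, by 3.20 in SoF and by 3.65 in Ctrl. It had 42.6 and 90.4 CPM at 0 h and 10.6 and 12.9 at 3 h in wt. Of the 6 relatives of CEBPZ and subunits of the CCAAT binding factor NF-Y, none was called at 3 h in any line.

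**Figure D4:**
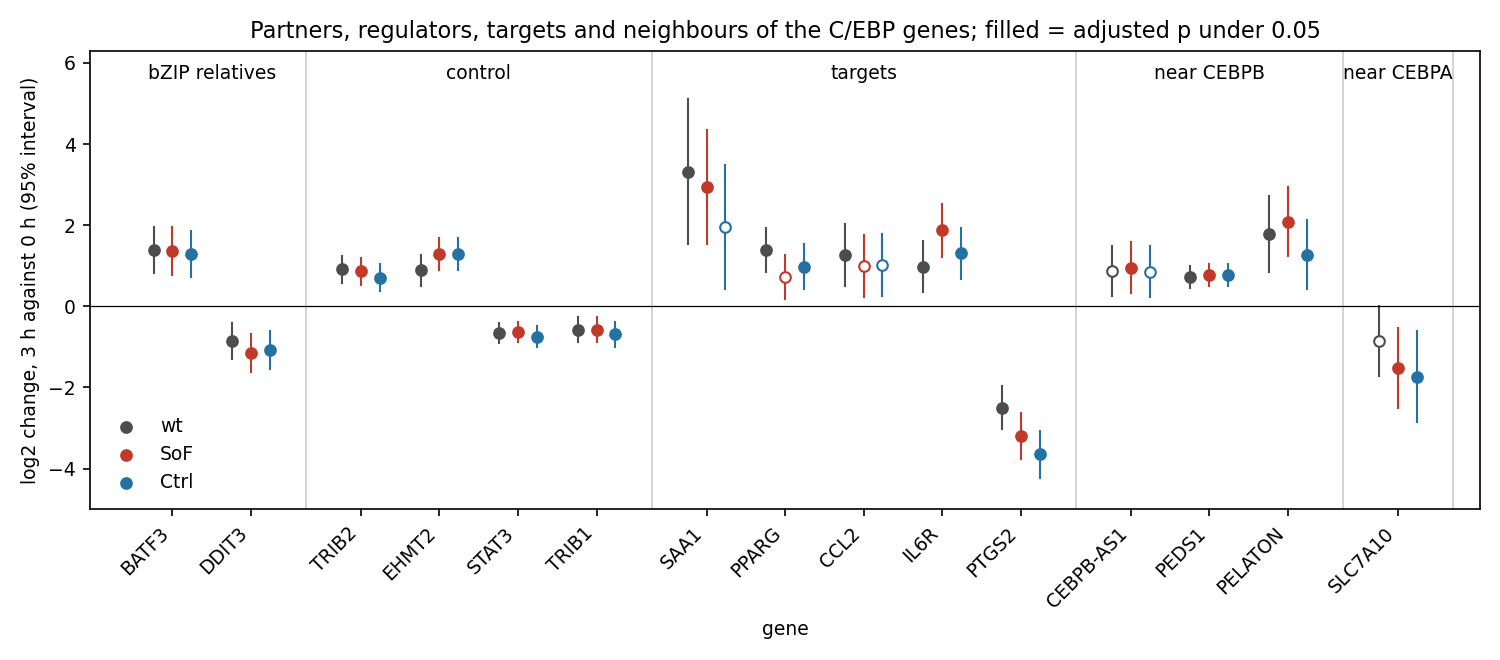
Log2 change at 3 h against 0 h, with 95% intervals, for the named partners, regulators and targets of C/EBP proteins and for genes near CEBPB and CEBPA, by line. Filled points have an adjusted p under 0.05: SAA1 is the highest (3.32 in wt) and PTGS2 the lowest (-3.65 in Ctrl).

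All 8 genes starting within 100 kb of the start of CEBPB were tested, and at 3 h 2 were higher and 1 lower in wt, 3 higher in SoF and 2 higher in Ctrl. With so few genes, these counts stand beside 10.7%, 19.3% and 14.2% of all tested genes called in either direction and are a description only. PEDS1, which makes plasmalogens and starts 37096 bp upstream on the other strand, rose by 0.73 in wt, 0.77 in SoF and 0.77 in Ctrl. PEDS1-UBE2V1 starts 37193 bp upstream on the same strand as PEDS1 and could share reads with it and with UBE2V1, so the PEDS1 count is uncertain. Neither PEDS1-UBE2V1 nor UBE2V1 was called at 3 h in any line. PELATON, a long noncoding RNA starting 56813 bp downstream, rose by 1.78, 2.08 and 1.28. CEBPB-AS1, which overlaps CEBPB on the opposite strand, had 2.31 to 3.00 CPM in the 0 h libraries and 5.36 to 8.91 at 2 h, and it rose at 2 h by 1.07 in wt, 1.58 in SoF and 1.19 in Ctrl. At 3 h it was called in SoF at 0.96, with uncalled values of 0.86 in wt and 0.85 in Ctrl. With the replicate block it was also called at 3 h in wt (0.87, adjusted p = 0.0276) and in Ctrl (0.86, adjusted p = 0.0278). The use of strand in the counting is given only by the title of the count table, so reads of this pair may not be fully separated. ENSG00000234698, a noncoding RNA 24468 bp upstream, was lower in wt at -1.73 (adjusted p = 0.0433), with -0.02 in SoF and -0.96 in Ctrl. PEDS1 kept its calls without any 1 library. Calls were lost without any 1 of the 4 libraries for CEBPB-AS1 in wt at 2 h (0.93 to 1.19) and in SoF at 3 h (0.80 to 1.09), for PELATON in Ctrl (1.14 to 1.41) and for ENSG00000234698 in wt (-2.08 to -1.44). They were also lost for CEBPB-AS1 at 2 h in SoF without the first 2 h library (1.28) and in Ctrl without the second 0 h library (1.12) or either 2 h library (1.12 and 1.27), and for PELATON in wt without the first 0 h (1.11) or first 3 h library (1.59). With the libraries of 1 line alone, calls were also lost for CEBPB-AS1 in wt at 2 h (1.05) and in SoF at 3 h (0.96), for ENSG00000234698 in wt (-1.73) and for PELATON in wt (1.77) and in Ctrl (1.27). With upper quartile factors they were lost for CEBPB-AS1 in wt at 2 h (0.97) and in SoF at 3 h (0.84) and for PELATON in Ctrl (1.17), which was lost too by DESeq2 (1.27) and without the filter (1.27).

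CEBPD had no tested gene within 100 kb. Near CEBPA, SLC7A10, an amino acid transporter gene, fell by 1.52 in SoF and by 1.73 in Ctrl and had -0.86 in wt, uncalled. The SLC7A10 call was lost in Ctrl without any 1 of the 4 libraries (-2.22 to -1.35) and in SoF without the first 0 h or second 3 h library (-0.99 and -1.15) or with the libraries of SoF alone (-1.51). CEBPZ and NDUFAF7, a complex I assembly factor, start 35 bp apart on opposite strands, and NDUFAF7 had log2 values at 3 h of -0.03 (SE 0.17) in wt, -0.16 (SE 0.17) in SoF and -0.01 (SE 0.17) in Ctrl. PRKD3, a protein kinase gene 93237 bp upstream of CEBPZ, rose by 0.52 in wt (adjusted p = 0.0374) and had 0.28 in SoF and -0.04 in Ctrl. That call was lost without the first 0 h (0.30) or first 3 h library (0.37) of wt, with upper quartile factors (0.42) and with the libraries of wt alone (0.51). CEBPZ overlaps CEBPZOS and a noncoding RNA on the other strand, so its counts carry the same uncertainty.

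The genes most like each member were ranked by Pearson's r of log2 CPM over the 24 libraries, which share groups and depth, so r describes likeness only. For CEBPB they were CDK5R1 (0.97), ELK3 (0.97) and ARRDC2 (0.96). For CEBPD they were ENSG00000249590 (0.98), GAS2L1 (0.96) and FOXF2 (0.96). Between CEBPB and CEBPD r was 0.88, where 0.317% of tested genes had r over 0.9 with CEBPB and 0.905% with CEBPD. CEBPZ was most like HNRNPU (0.87), NOC3L (0.86), also a nucleolar ribosome biogenesis factor, and SOCS4 (0.85). CEBPG was most like GRPEL2 (0.76), NARS1 (0.73) and SLC38A1 (0.72), and its r with CEBPZ was 0.55. CEBPA, at its low counts, was most like WSB2 (0.83), SNORA70 (0.79) and MRPL41 (0.79).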

How the data were processed

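Newly made RNA of 24 libraries was measured by 4sU-seq. The authors tagged molecules with UMI-tools 1.1.2, trimmed with Trim Galore 0.6.6, aligned to hg38 with STAR 2.7.3a, removed duplicates and counted exon reads with featureCounts on GENCODE 39. The deposited values are whole-number counts per gene and library with no normalization. Counts of all genes were tested in edgeR 4.0.16 (R 4.3.3, limma 3.58.1) with TMM factors, filterByExpr (minimum count 10, total 15), quasi-likelihood F tests and adjustment by Benjamini-Hochberg, called at adjusted p under 0.05. A fit over 12 groups kept 23651 of 61533 genes, and a fit on line alone 21122. The SE is the log2 change divided by the square root of F. CPM uses TMM factors, and log2 CPM a prior count of 2. The scripts were tested on simulated data. Names, positions, exons and GC came from GENCODE 44, which matched 61369 genes. Total counts ranged from 8106036 to 15820806, and the 2 libraries of a group differed by 5.47 to 19.7 times counting error (chi-square per degree of freedom), so none was counted as a repeat. DESeq2 1.42.0, other size factors, no filter, a replicate block and each library left out were alternatives. The members and gene lists were chosen with earlier results of these data known. Named from each list were genes called at 3 h in wt (up to 4 per direction), tested neighbours within 100 kb that were called, and the 3 most alike genes per member. ATF4, NDUFAF7, CEBPE, SAA2, TRIB3, PEDS1-UBE2V1 and UBE2V1 were named after their values were seen.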

Additional observations from a re-analysis of the deposited data

How the results depend on the processing

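Each group held 2 libraries, so 1 library often decided a call, and counts of 10 to 42 limit CEBPA. CEBPB in wt and SoF at 2 and 3 h and CEBPD in SoF at 3 h were called under all 10 alternatives each. Without the low-count filter 1 member (CEBPB) was called at 1 h in wt, 1 (CEBPB) at 1 h in SoF, 2 at 2 h in Ctrl, 2 for the step from 1 to 2 h in Ctrl and 1 (CEBPB) for SoF against Ctrl at 3 h, where 52 genes were called. With time as an added term 1 member (CEBPD) differed in SoF and 1 (CEBPD) in Ctrl against wt. Over all genes, the calls at 1 h were 37 in wt, 39 in SoF and 11 in Ctrl, and 516, 245 and 44 without the filter. DESeq2 gave 105 in wt and 79 in SoF, the block 59 and the line's libraries alone 22 in wt. At 2 h in wt, 1089 genes became 1706 without the filter and 668 with the line alone. For the step from 2 to 3 h, 161 in wt, 599 in SoF and 271 in Ctrl became 444, 965 and 549 without the filter. DESeq2 gave 309 in wt and 411 in Ctrl, the block 256 and the line alone 16 in wt. Response differences had 3 calls for SoF against Ctrl at 3 h, 12 by DESeq2, and 0 elsewhere. Without the filter they had 11 (SoF against Ctrl), 1 (SoF against wt) and 22 (Ctrl against wt) at 2 h, and 4 (SoF against wt) and 17 (Ctrl against wt, 1 by DESeq2) at 3 h. Between lines, 763 (SoF against Ctrl), 1693 (SoF against wt) and 1007 (Ctrl against wt) became 2814, 6134 and 3965 with time as an added term, 82, 82 and 73 at 0 h alone, 158, 49 and 112 at 3 h alone (chosen after seeing the data), and 1004 and 583 for the comparisons against wt without the filter. The cause of these differences was not tested. With 1 library left out, the members called were 1 to 2 at 2 h and 1 to 2 at 3 h in wt, 1 to 2 at 2 h in SoF, 0 to 2 at 2 h and 0 to 2 at 3 h in Ctrl, and for the step from 1 to 2 h 0 to 2 in wt, 1 to 2 in SoF and 0 to 1 in Ctrl. By Spearman's rank correlation, 6 of the 15 most alike genes stayed.

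Signs turned only in uncalled values. With upper quartile factors, CEBPZ at 3 h was -0.028 in wt and -0.11 in SoF, and CEBPG in SoF -0.0079. In SoF at 3 h CEBPZ was -0.022 with RLE factors and -0.018 in DESeq2, and ENSG00000234698 was 0.0055 without the filter. At 0 h alone, CEBPB differed by -0.28 for SoF minus Ctrl and 0.46 for Ctrl minus wt, and CEBPD by -0.16 for SoF minus Ctrl. Leaving out 1 library moved CEBPD at 1 h over -0.35 to 0.17 in wt, -0.19 to 0.49 in SoF and -0.51 to 1.61 in Ctrl. At 3 h it moved CEBPA over -0.24 to 0.027 in wt and -0.42 to 0.68 in SoF, CEBPZ over -0.065 to 0.20 in wt and -0.12 to 0.11 in SoF, and CEBPG in SoF over -0.031 to 0.26. ENSG00000234698 in SoF ran from -0.43 to 0.47 and PRKD3 in Ctrl from -0.13 to 0.074. The 3 h response differences ran from -1.06 to 1.05 for CEBPD in SoF minus Ctrl, from -0.022 to 1.07 for CEBPB in SoF minus wt and from -0.70 to 1.44 for CEBPD in Ctrl minus wt. Over all times, CEBPB in SoF minus wt was -0.022 without replicate 1 and 0.68 without replicate 2.

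Replicate numbers did not pair the libraries over the groups as a whole, though some groups were alike. At 0 h the second library was the lower of the pair in every line, for CEBPB and for CEBPD. All responses of a line share that baseline. Over 66 pairs of groups, the deviations of same-numbered libraries correlated at -0.22 to 0.57 (median 0.04), with 21 pairs over 0.1 and 27 negative. With the replicate block 2 members were called at 2 h in Ctrl, CEBPD being at 1.18 (adjusted p = 0.047), and CEBPA in SoF at 3 h was 0.0042. It changed no other count of members called, and of the other named genes it changed the calls of CEBPB-AS1 in wt and Ctrl, SAA1 in Ctrl and PPARG in SoF at 3 h.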
